A study of Mus musculus with 12 samples.

Results

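The cytosolic ribosomal protein genes encode the protein part of the ribosome that translates nuclear messages. They were taken as the rows of both count tables whose symbol is that of an Rpl, Rps, Rplp or Rpsa gene, optionally with the ending a, l or x, at a mean of at least 1 CPM (counts scaled to library size). Of 55401 rows in each table, 83 matched and 79 reached this level, the same 79 in both tables, with 47 genes of the large (60S) and 32 of the small (40S) subunit. Of the 79, 77 are annotated as protein coding and the remaining 2, Rps4l and Rpl6l, as pseudogenes. The 4 rows below the minimum were Rpl10l, Rpl3l, Rpl32l and Rpl39l, copies of other ribosomal protein genes. Rpl10l had 0 counts in every library, and the mean of the others did not pass 0.375 CPM. The lowest members, both well above the minimum, were Rps4l, with means of 10.6 and 8.08 CPM in the AMPK-KO and the late table, and Rpl6l with 20.8 and 28.6 CPM. The pattern leaves out Fau and Rack1, which also encode ribosomal components, and Rps3a1, a small subunit gene named here after its values had been seen.

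The ribosome has a small subunit, which reads the message, and a large subunit, which joins amino acids, and the proteins of each surround and stabilise its ribosomal RNA. Many ribosomal protein messages begin with a 5′ terminal oligopyrimidine tract (5′TOP), a C followed by a run of C and T, through which the kinase mTORC1 and the binding protein LARP1 control their translation. AMPK, a kinase active under energy shortage, restrains mTORC1 and, through the kinase eEF2K, the elongation step of translation. In macrophages several of these proteins also act outside the ribosome, as RPL13A does when it silences inflammatory messages. The libraries measure message levels and not translation.

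Bulk RNA-seq was performed on tumor-associated macrophages (TAMs) sorted from subcutaneous B16-F10 melanoma tumors of mice on a C57BL/6 background, 5 weeks old when used. One table compared AMPK-KO TAMs, of genotype AMPKfl/flLyz2cre/cre, with WT TAMs, of genotype AMPKfl/fl, both from day 15 after implantation, and the other compared late TAMs (day 15) with early TAMs (day 8), both labelled WT, with 3 libraries in each group. The Lyz2 promoter drives Cre in the myeloid lineage and not in macrophages alone, and the floxed allele is also carried by the WT group of that table. Nothing states that the libraries of a group came from separate animals, so p-values measure the spread between these libraries. The total was 71019494 to 84470374 counts per library.

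The libraries were checked against their labels. Prkaa1, the AMPK catalytic subunit gene targeted by the deletion, was at 65.0 ± 3.34 CPM in WT and 42.9 ± 3.53 CPM in AMPK-KO (mean ± SD, n = 3), a log2 fold change of −0.60 (adjusted p = 2.3e-04, edgeR quasi-likelihood test with Benjamini-Hochberg adjustment), so that message of the gene remained, and counts over the whole gene do not separate its deleted part. Lyz2, the locus into which Cre is inserted, was at 10.7 ± 2.46 CPM in WT and 11.2 ± 2.16 CPM in AMPK-KO, although the WT label carries no Cre, while it was at 2789.8 ± 279 CPM in early and 1107 ± 19.1 CPM in late. Of 11 macrophage markers, none was at 0 in all libraries, and their summed level was 13168 to 15750 CPM over the 12 libraries. The study's methods name female mice. Even so, the Y-linked gene Ddx3y was at 46.9 ± 1.49 CPM in WT and 56.9 ± 4.25 CPM in AMPK-KO. Its log2 fold change was 0.28 (adjusted p = 0.0151, edgeR quasi-likelihood test), and it was the only 1 of 4 Y-linked genes called there. The 4 Y-linked genes examined had a median log2 fold change of −11.78 in late against early, so sex and day cannot be told apart in that comparison.

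The 5′ ends of the messages are shown first, because the pyrimidine tract is the feature through which these genes are translated as a group. The lines give the first 20 bases of one annotated transcript per gene (GENCODE M21, mouse build GRCm38), 5′ to 3′, with the pyrimidine tract in capitals. Rpl32, Rps24, Rpl30, Rpl4 and Rps2 illustrate annotated starts within a tract. Rpl29, Rpl27, Rpl21 and Rpl14 were lower in AMPK-KO TAMs below, and their annotated starts are not a C followed by at least 4 C or T. Rps2 was also lower in AMPK-KO TAMs, so the genes called lower include annotated starts of both kinds. The used start may differ from the annotated one, so these lines do not show whether a message lacks a tract.
Rpl32, chr6:115808728-115808747, minus strand: CTTCCTTCTTCCTCggcgct
Rps24, chr14:24490718-24490737, plus strand: CTCTTTTCCTCCTCTCCagc
Rpl30, chr15:34443203-34443222, minus strand: CCTTTCTCgctccccggcca
Rpl4, chr9:64173375-64173394, plus strand: CTTTTCCTgtgggagcagcc
Rps2, chr17:24720110-24720129, plus strand: CTTCTTCTTCTTCgggagaa
Rpl29, chr9:106429539-106429558, plus strand: tcttccggtctccggcgctg
Rpl27, chr11:101442298-101442317, plus strand: ccctgacgagctccttccgc
Rpl21, chr5:146832890-146832909, plus strand: gtcagcacgctacggaagtc
Rpl14, chr9:120571444-120571463, plus strand: aatcggtgggcacgctggac

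A transcript start of C followed by at least 4 C or T was found in 11 of the 77 coding genes (14.29%), against 2.16% of 21210 coding genes of the annotation. The tract was 17 bases long in Rps24, 14 in Rpl32 and 13 in Rps2. Annotated starts can lie some bases away from the used one, so a wider window was also read. In the RefSeq promoter sequences of GRCm38.p6, which held 57 of the 79 genes, a run of at least 7 C or T on the strand of the gene lay between 10 bases before and 15 bases after the start in 29 genes (50.88%), against 17.5% of 27020 genes. The genes lie on 19 chromosomes, and 4 of them (Rps4x, Rpl10, Rpl36a and Rpl39) on the X chromosome.

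Most ribosomal proteins enter the ribosome in equal numbers, yet the level of their messages per length was uneven. Per kilobase of merged exons, the mean level over both tables was highest in Rplp1, a protein of the stalk that recruits elongation factors, at 1542 CPM per kilobase, followed by the stalk base gene Rplp0 at 720.1 and Rps2, which lies at the entrance of the message channel, at 689. The lowest were the pseudogene rows Rps4l (9.92) and Rpl6l (28.4), and, among coding genes, Rpl21 (34.3). The order depends on the length used: per kilobase of the chosen transcript, Rplp1 kept rank 1 and Rps2 had rank 2, while Rplp0 had rank 11. Reads shared between copies also bear on levels, since at least 50% of the 100-base words of the transcript recurred in other annotated genes for 31 of the 79 genes and none did for 6. How multiply mapped reads were counted is not given in the sources used here.

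Summed over the 79 genes, the ribosomal protein messages took 3.18%, 4.03% and 3.64% of all counts in WT 1 to 3 and 3.08%, 3.26% and 3.59% in AMPK-KO 1 to 3. The groups overlapped, with WT 1 below AMPK-KO 2 and 3. The means were 3.62 ± 0.424% and 3.31 ± 0.258% (SD, n = 3), a difference of −0.307 percentage points against a pooled SD of 0.351, and the difference ranged from −0.526 without WT 1 to −0.102 without WT 2. In the other table the share was 3.95%, 3.60% and 3.50% in early 1 to 3 and 3.94%, 4.22% and 4.08% in late 1 to 3. Only late 1 fell within the early range, just below early 1. The means were 3.68 ± 0.236% and 4.08 ± 0.141%, a difference of 0.400 percentage points against a pooled SD of 0.194. In bulk samples, a smaller share of a cell type and less message per cell cannot be told apart.

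**Figure D1:**
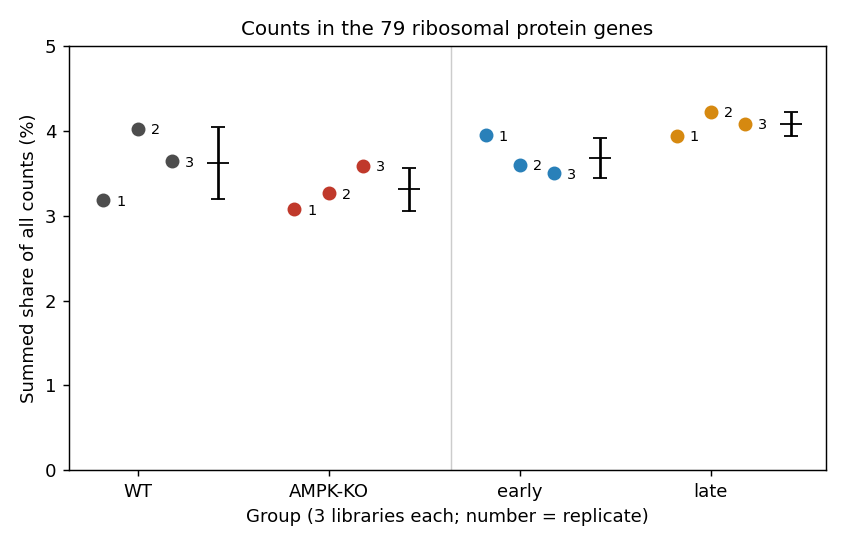
Summed share of all counts (%, y axis from 0) in the 79 ribosomal protein genes for each library, by group (x axis). Points are libraries with their replicate number, and the bar beside them is the mean ± SD (n = 3). WT 1 to 3 spread from 3.18% to 4.03% and enclose the 3 AMPK-KO libraries except AMPK-KO 1 at 3.08%.

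The first comparison asks whether loss of AMPK in myeloid cells altered the ribosomal protein messages of TAMs. The shift was small and almost all one way: 77 of the 79 genes had a log2 fold change below 0 in AMPK-KO, where 50.5% of the 17532 genes tested did, and the median was −0.14 against −0.00 over all genes tested. By the edgeR quasi-likelihood test with Benjamini-Hochberg adjustment over all genes tested, 6 genes were lower (Rpl29, Rpl27, Rpl21, Rpl14, Rps2 and Rps4l) and 0 higher. Over all genes tested, 9.78% were called lower and 11.3% higher, so the 6 of 79 do not exceed the background. At an unadjusted p under 0.05, 19 genes were lower (16% of all genes tested) and 0 higher (16.6%). Of 2102 other genes with a mean of 100 CPM or more, 576 were lower and 652 higher at that threshold. After adjustment 443 of these were lower and 529 higher. DESeq2 called 11 lower and 0 higher at the adjusted threshold, against 10.7% and 12.1% of all genes tested. The log2 fold changes ran from −0.65 in Rpl38 to 0.10 in Rps9. The groups did not overlap for 6 genes, all lower, against 18.4% of all genes tested that were lower and 18.8% that were higher without overlap.

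Rpl29, a large subunit surface protein (ENSMUSG00000048758.14, chr9:106429454-106431568, plus strand), showed the smallest p among the 79. It was at 303, 313 and 313 CPM in WT 1 to 3 and at 267, 246 and 275 CPM in AMPK-KO 1 to 3 (log2 fold change −0.24, SE 0.051, adjusted p = 0.00772, edgeR quasi-likelihood test). Each AMPK-KO library lay below every WT library, and the 3 WT values were close to each other. The call held in all 14 alternatives of the processing, libraries left out included, with adjusted p between 2.6e-04 and 0.0452.

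Rpl27 (ENSMUSG00000063316.13, chr11:101442298-101445529, plus strand), a large subunit gene, was at 350.4, 445 and 409 CPM in WT and 325, 317 and 347 CPM in AMPK-KO (log2 fold change −0.28, SE 0.078, adjusted p = 0.0262, edgeR). The groups were separated by little, because WT 1 and AMPK-KO 3 almost met. Rpl21 (ENSMUSG00000041453.12, chr5:146832890-146837032, plus strand), another large subunit gene, was at 114, 141 and 119.9 CPM in WT and 101, 92.0 and 110.1 CPM in AMPK-KO (log2 fold change −0.31, SE 0.087, adjusted p = 0.0296, edgeR). Here too WT 2 was the highest library and no AMPK-KO library reached the WT range. Rpl14 (ENSMUSG00000025794.9, chr9:120571444-120574654, plus strand), also of the large subunit, was at 309.8, 378 and 353 CPM in WT and 271, 291 and 317 CPM in AMPK-KO (log2 fold change −0.25, SE 0.078, adjusted p = 0.0486, edgeR), and was named after its values had been seen. AMPK-KO 3 lay above WT 1, so these groups overlapped. Each of Rpl27, Rpl21 and Rpl14 kept its call in 9 of 14 alternatives.

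Of the small subunit, Rps2 (ENSMUSG00000044533.15, chr17:24718116-24721929, plus strand) was the most abundant of the 79 genes in counts of the first table. It was at 1131, 1279 and 1213 CPM in WT and 1054, 1095 and 1096 CPM in AMPK-KO (log2 fold change −0.16, SE 0.049, adjusted p = 0.0433, edgeR). The 3 AMPK-KO libraries lay close together and just under WT 1, and the call held in 8 of 14 alternatives. Rps4l (ENSMUSG00000063171.4, chr6:148354656-148355598, plus strand), a row annotated as a transcribed processed pseudogene related to Rps4x, was at 11.6, 10.9 and 14.5 CPM in WT and 7.54, 8.99 and 10.2 CPM in AMPK-KO (log2 fold change −0.47, SE 0.15, adjusted p = 0.0432, edgeR). Its WT libraries did not follow the order of the other genes, with WT 3 highest and WT 2 lowest. Only 1.66% of its 100-base words recurred in other genes, compared with 58.5% for Rps2, 50.1% for Rpl29 and 60.6% for Rpl27.

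The genes with the most negative estimates were not the ones called. Rpl38, a large subunit protein known for selective translation of Hox messages, had a log2 fold change of −0.65 with a 95% interval from −1.41 to 0.10. Its libraries ranged over 42.2, 123 and 83.4 CPM in WT 1 to 3 and 36.0, 47.0 and 75.1 CPM in AMPK-KO 1 to 3, so the spread within each group was wider than the difference. Rps29 (−0.52) and Rps28 (−0.50), both small subunit genes with short transcripts and named after their values had been seen, had similarly wide intervals. The standard error was larger for shorter transcripts (Spearman's rho −0.52 across the 79 genes, which are not independent replicates). The 95% interval lay within a 1.5-fold change in either direction for 65 of the 79 genes and within a 2-fold change for 76.

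The stalk and the 5S particle showed no call. Rplp0 was at 919, 1213 and 1102 CPM in WT and 994, 1032 and 1115 CPM in AMPK-KO (log2 fold change −0.04), Rplp1 differed by −0.19 and Rplp2 by −0.13. For Rpl5 and Rpl11, which bind the 5S ribosomal RNA and, when unassembled, the p53 regulator MDM2, the log2 fold changes were −0.06 and −0.13. Rps6, the substrate of S6 kinase, differed by −0.06 (95% interval −0.22 to 0.11), and Rpl13a by −0.03 (95% interval −0.21 to 0.16).

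Paralogs were set beside their partners. Rps27l, a paralog of Rps27 that p53 induces, was at 67.1, 106 and 87.4 CPM in WT and 63.4, 68.0 and 74.5 CPM in AMPK-KO (log2 fold change −0.34, adjusted p = 0.109, edgeR), and Rps27 differed by −0.14 (95% interval −0.65 to 0.37). Neither passed the test. Of the X-linked genes, Rpl10 differed by −0.06, Rpl36a by −0.18 and Rpl39, which lines the exit tunnel, by −0.28, and none passed the test. The only estimates above 0 were those of Rps9 (0.10) and the X-linked Rps4x (0.02), and neither passed the test. Rps9 was at 643, 818 and 743 CPM in WT and 734, 791 and 841 CPM in AMPK-KO, so that the groups overlapped.

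**Figure D2:**
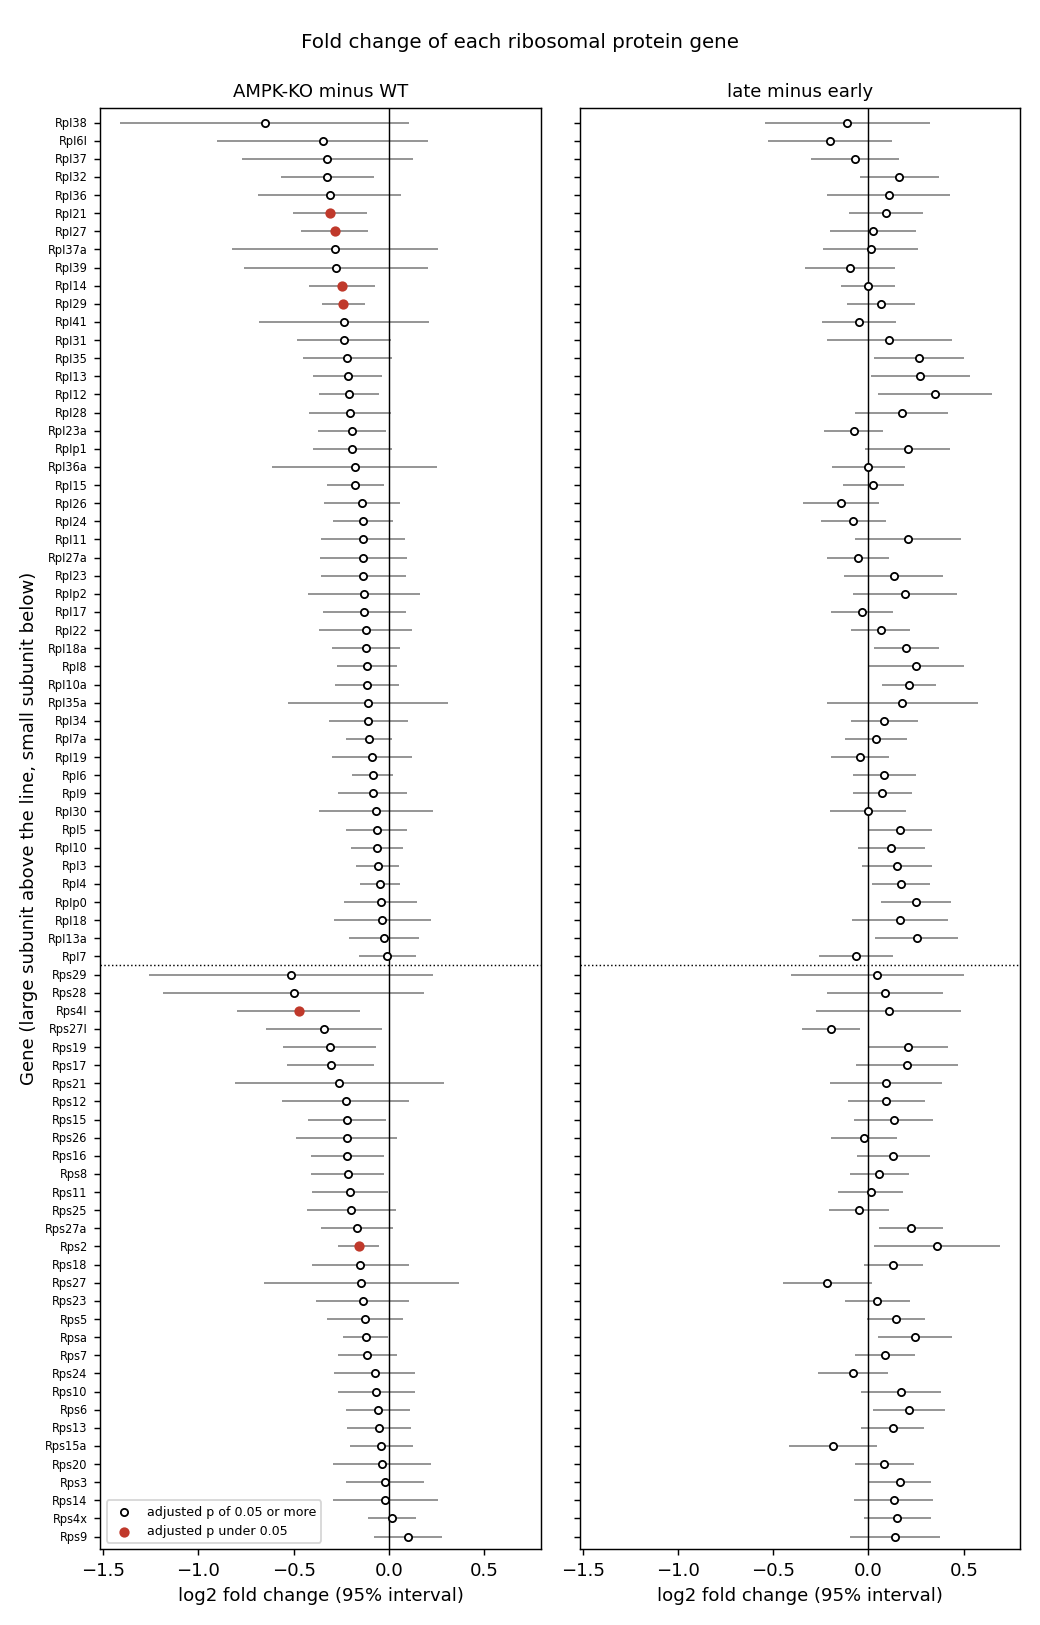
Log2 fold change (x axis) of each of the 79 ribosomal protein genes (y axis, large subunit above the dotted line), AMPK-KO minus WT at left and late minus early at right. Points are edgeR estimates, lines their 95% intervals, and filled points have an adjusted p under 0.05. The 6 filled points, all left of 0, are in the AMPK-KO comparison.

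The number of genes called lower in AMPK-KO rested on single libraries. It was 38 without WT 1, 2 without WT 2, 1 without WT 3, 1 without AMPK-KO 1, 1 without AMPK-KO 2 and 7 without AMPK-KO 3. The number called higher was 0 each time. The share of all genes tested that was called in each of these fits was not counted, so these counts have no background beside them. The median log2 fold change was −0.25 without WT 1 and −0.04 without WT 2. These swings went with a shift of the whole set within each group. WT 2 had the highest level of its group in 78 of the 79 genes and WT 1 the lowest in 78, and AMPK-KO 3 was highest in 79 and AMPK-KO 1 lowest in 70. Among other genes tested the same libraries were highest or lowest in 33.6% to 37.7% of genes. The median member lay 0.20 below its group mean in WT 1 and 0.20 above it in WT 2 on the log2 scale.

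These libraries also differed in the level of short against long genes. Over 17012 genes, the deviation of a library from its group mean was related to merged exon length with Spearman's rho 0.24 in WT 1, −0.25 in WT 2, 0.18 in AMPK-KO 1 and −0.25 in AMPK-KO 3. Short genes were thus relatively low in the libraries where ribosomal protein genes were low. Across the 79 genes, the log2 fold change in AMPK-KO was also related to exon length (rho 0.57), while over all genes tested rho was 0.08. With the length of the chosen transcript instead, rho across the 79 genes was 0.40. When a smooth trend on exon length was removed from every library, an alternative chosen after seeing the data, 26 of the 79 genes were called lower and 0 higher, with a median of −0.16. The share of all genes tested that was called in that fit was not counted. The part of RNA integrity or library preparation in this was not tested.

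**Figure D3:**
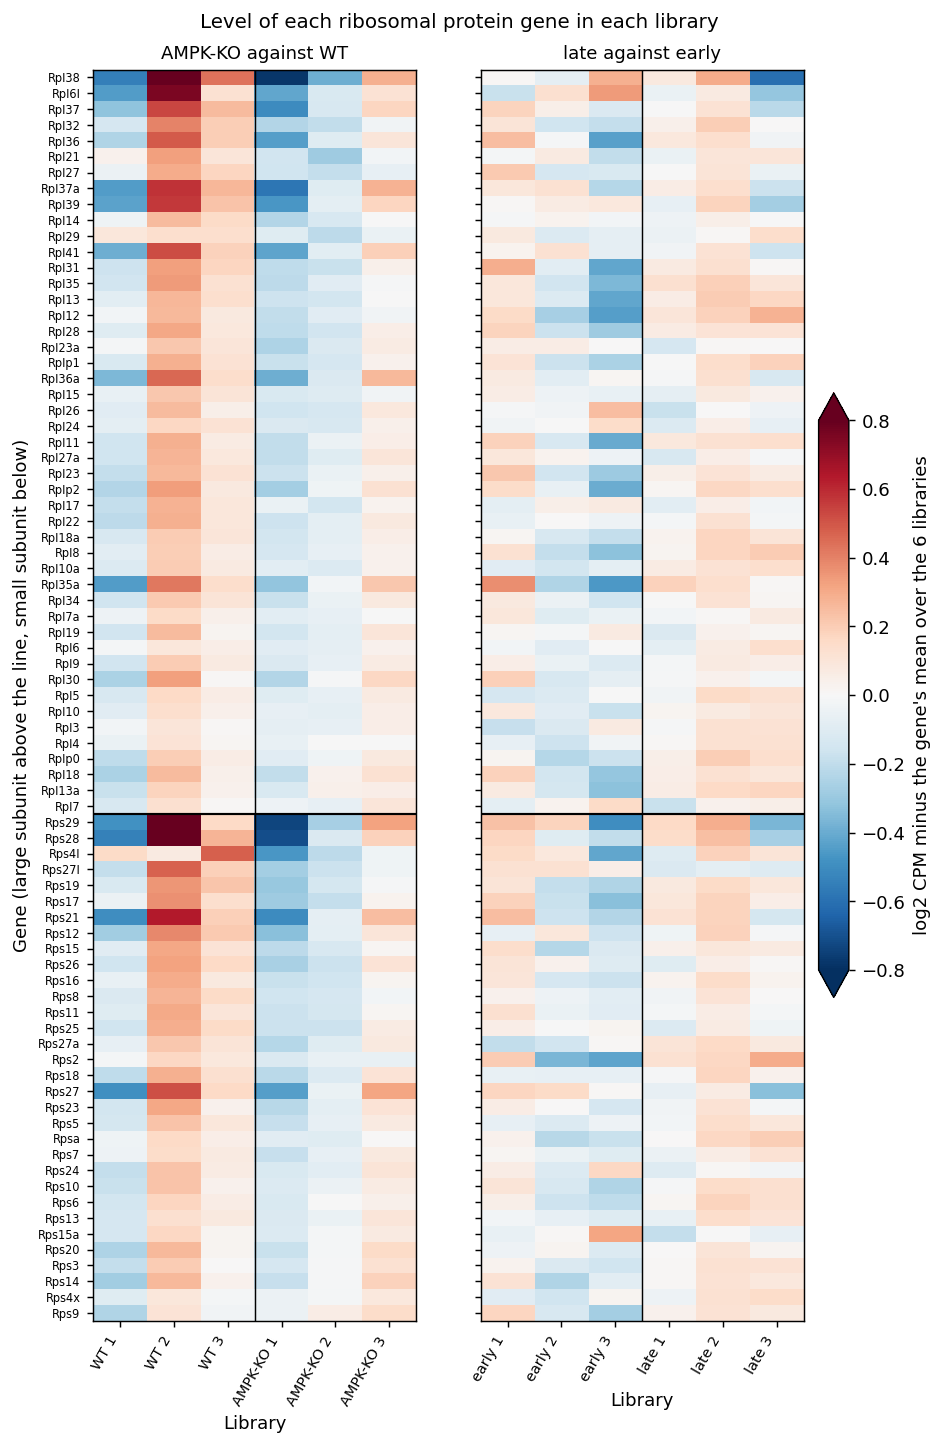
Log2 CPM of each ribosomal protein gene (rows, large subunit above the horizontal line, ordered by the AMPK-KO fold change) in each library (columns), as the difference from the gene's mean over the 6 libraries of its table, with red higher and blue lower. The WT 2 column is red and the WT 1 and AMPK-KO 1 columns blue for nearly every gene, with the widest swings in Rpl38, Rps29 and Rps28.

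**Figure D4:**
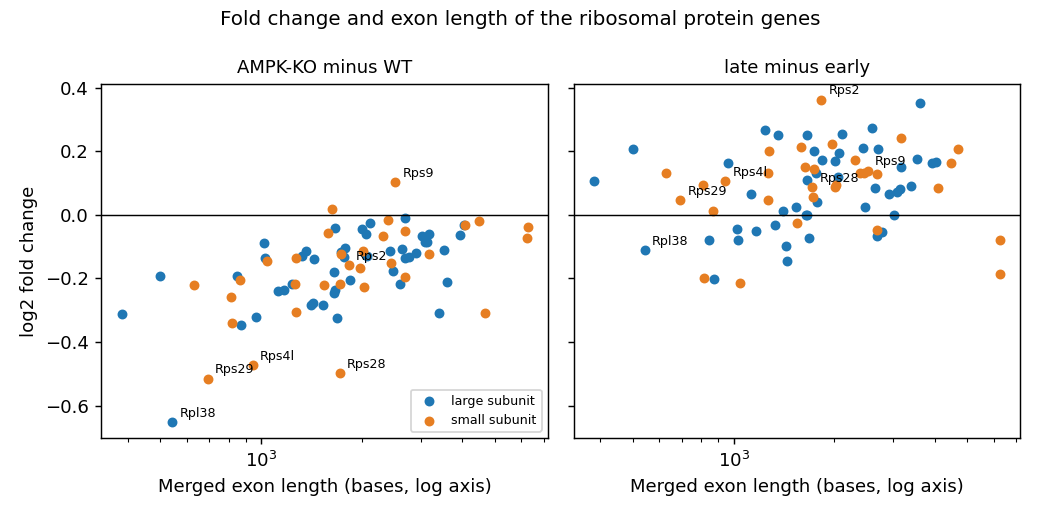
Log2 fold change (y axis) against merged exon length in bases (x axis, log scale) of the 79 genes, AMPK-KO minus WT at left and late minus early at right, by subunit. In AMPK-KO the shorter genes such as Rpl38 and Rps29 lie lowest (Spearman's rho 0.57), and in late against early the relation is weaker (0.25).

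Markers of other cells moved in the same comparison. In AMPK-KO, 9 of 10 T cell markers and 7 of 7 NK cell markers were higher, with summed levels of 239 to 241 against 134 to 151 CPM in WT for T cells and 81.7 to 84.9 against 33.3 to 37.2 CPM for NK cells. Of the 6 fibroblast markers all were higher (741 to 822 against 570.0 to 617 CPM), as were 5 of 7 dendritic cell markers (84.0 to 86.2 against 43.9 to 49.7 CPM) and 3 of 4 tested neutrophil markers (158 to 160.3 against 95.4 to 102 CPM). Nearly all of the neutrophil sum was Csf3r, at 154.2 CPM on average in AMPK-KO and 96.5 CPM in WT. Of 6 endothelial markers 2 were higher and 1 lower (125 to 128 against 56.7 to 68.9 CPM), and of 11 macrophage markers 2 were higher and 2 lower (13588 to 13807 against 13950 to 15170 CPM). B16 melanoma markers were lower for 6 of 7 genes (676 to 716 against 998 to 999 CPM) and erythroid markers for 4 of 5 tested (7.67 to 9.17 against 22.5 to 25.1 CPM). Of 7 B cell markers 2 were higher and 5 lower (184 to 189 against 140.5 to 148 CPM), and Cd79a and Pax5 were at or below 0.106 CPM on average in AMPK-KO. Most of the B cell sum was Ighm, at 164.6 CPM on average in AMPK-KO and 111.8 CPM in WT. The part of these cells in the ribosomal protein levels was not tested.

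The other comparison asks how the messages changed as the tumor grew from day 8 to day 15. By the edgeR quasi-likelihood test with Benjamini-Hochberg adjustment, 0 of the 79 genes were higher and 0 lower in late TAMs, where 4.31% of the 17630 genes tested were higher and 4.88% lower. At an unadjusted p under 0.05, 13 were higher (12% of all genes tested) and 1 lower (12.4%). Of 2060 other genes with a mean of 100 CPM or more, 383 were higher and 412 lower at that threshold. DESeq2 called 3 higher (Rpl10a, Rpl12 and Rplp0) and 0 lower at the adjusted threshold, against 6.66% and 7.2% of all genes tested. The log2 fold change was above 0 for 58 genes, against 50.4% of all genes tested, with a median of 0.09 (0.00 over all genes) and a range from −0.22 in Rps27 to 0.36 in Rps2. The groups did not overlap for 8 genes that were higher and 1 that was lower, and 15.6% of all genes tested did so in each direction. The 95% interval lay within a 1.5-fold change for 77 of the 79 genes, the exceptions being Rpl12 and Rps2.

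Rpl10a, the protein of the mobile L1 stalk near the exit site of the large subunit, had the smallest p. It was at 431, 414 and 435 CPM in early 1 to 3 and 481, 498 and 503 CPM in late 1 to 3 (log2 fold change 0.21, SE 0.063, adjusted p = 0.0706, edgeR). All late libraries lay above all early ones. Rplp0 was at 1341, 1125 and 1170.4 CPM in early and 1366, 1510.2 and 1449 CPM in late (log2 fold change 0.25, SE 0.081, adjusted p = 0.0899, edgeR). Its groups did not overlap either, although late 1 and early 1 were close. Rps27a, which is made as a fusion with ubiquitin, was at 333, 343 and 384 CPM in early and 409.6, 426 and 403 CPM in late (log2 fold change 0.22, adjusted p = 0.0941, edgeR), again without overlap.

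Rps2 and Rpl12, a large subunit protein at the stalk base, had the largest estimates of the 79 genes, and their early libraries were spread widely. Rps2 was at 1558, 1048 and 1010.5 CPM in early and 1468, 1515 and 1664 CPM in late (log2 fold change 0.36, SE 0.15, adjusted p = 0.165, edgeR). Early 1 lay inside the late range, far above early 2 and 3. Rpl12 was at 671, 503 and 444 CPM in early and 646, 686 and 733 CPM in late (log2 fold change 0.35, SE 0.13, adjusted p = 0.138, edgeR), with early 1 again above late 1. Rpsa, also known as a laminin receptor, differed by 0.24 (adjusted p = 0.118, edgeR), and Rps6 by 0.21 (95% interval 0.02 to 0.40).

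Rps27l was the only gene below 0 whose groups did not overlap. It was at 92.9, 93.2 and 88.6 CPM in early and 78.9, 81.0 and 79.7 CPM in late (log2 fold change −0.20, SE 0.067, adjusted p = 0.104, edgeR), with little spread in either group. Its partner Rps27 was at 182, 180.1 and 163 CPM in early and 154, 169.6 and 128 CPM in late (log2 fold change −0.22, 95% interval −0.45 to 0.02). Late 2 lay within the early range of Rps27. Rps15a (−0.18), Rpl26 (−0.14) and the pseudogene row Rpl6l (−0.20) were the next lowest, and none passed the test.

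Of the other named genes, Rplp1 differed by 0.21 and Rplp2 by 0.19 between late and early, Rpl5 by 0.16 and Rpl11 by 0.21. Rpl13a differed by 0.25 (95% interval 0.03 to 0.47) and Rpl3, a protein next to the catalytic center, by 0.15. The X-linked genes gave 0.15 for Rps4x, 0.12 for Rpl10, −0.10 for Rpl39 and −0.00 for Rpl36a. None of these passed the test after adjustment.

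Single libraries decided the count here too. Without early 1, 25 genes were called higher, without early 3 there were 2, and without any other library there were 0, while 0 were called lower each time. Here too the share of all genes tested that was called in each fit was not counted. The median log2 fold change was 0.15 without early 1, 0.038 without early 3 and 0.062 with the length trend removed. Early 1 had the highest level of its group in 53 of the 79 genes and early 3 the lowest in 50. Early 3 also had the largest share of mitochondrially encoded counts, 3.15% against 1.49% to 2.10% in the other 11 libraries. Late 2 was highest in 61 genes and late 1 lowest in 57. B16 melanoma markers were lower in late for 5 of 7 genes (767 to 1203 against 1663 to 1807 CPM) and NK cell markers for 5 of 7 (39.7 to 54.2 against 89.2 to 103 CPM), and fibroblast markers for 3 of 6 (393 to 555 against 801 to 878 CPM). T cell markers were higher for 5 of 10 genes (276 to 322 against 218 to 231 CPM) and B cell markers for 4 of 7 (248 to 314 against 148 to 154 CPM). Of the other lists, 2 of 3 tested neutrophil markers, 1 of 6 endothelial, 1 of 5 tested erythroid and 2 of 11 macrophage markers were lower, 1 macrophage marker was higher, and 0 of 7 dendritic cell markers passed the test. The part of these cells in the ribosomal protein levels was not tested.

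The 79 genes moved together from library to library. With each table centred on its own mean, the correlation of a gene with the mean of the other ribosomal protein genes over the 12 libraries had a median of 0.86, against 0.02 for 16733 other genes. These points share their libraries and their depth, so the value is a description. The 5 genes outside the set with the most similar pattern were Gpi-ps, Rps6-ps4, Rps2-ps13, Snrpg and Gm2574, with Pearson's r between 0.949 and 0.966 over 12 libraries. By their symbols, Rps6-ps4 and Rps2-ps13 are pseudogenes of the members Rps6 and Rps2. The part of reads shared between copies in their likeness was not tested.

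Both comparisons were made on separate libraries, and their estimates were set side by side. For 56 genes the estimate was below 0 in AMPK-KO and above 0 in late, and for 21 it was below 0 in both. It was above 0 in both for Rps4x and Rps9, and 0 genes had the reverse of the first pattern. With 77 of the 79 genes below 0 in AMPK-KO and 58 above 0 in late, most genes had to show the first pattern. The count therefore does not show an inverse relation gene by gene. Of the 6 genes called lower in AMPK-KO, 5 had an estimate above 0 in late TAMs, none of which passed the test. Rpl29, for example, gave −0.24 in AMPK-KO and 0.07 in late, and Rps2 −0.16 and 0.36.

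Ribosomal components outside the symbol pattern were similar in size. In AMPK-KO, Fau differed by 0.06, Rack1 by −0.05 and Rpl36al by −0.18, and none passed the test. Rpl22l1, a paralog of Rpl22, was the one of 7 listed genes that was lower, from 55.6 ± 5.61 CPM in WT to 44.2 ± 2.51 CPM in AMPK-KO (log2 fold change −0.33, SE 0.081, adjusted p = 0.0152, edgeR). In late TAMs the same genes gave 0.17, 0.20, −0.05 and 0.12 in the same order, with 0 calls among the 7.

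Genes that build the ribosome or act beside it were counted in the same fits. In AMPK-KO, 14 of 63 ribosome biogenesis genes were lower and 0 higher (median −0.12), led by Gnl3 (−0.44), a nucleolar GTPase, Nolc1 (−0.30), a chaperone of small nucleolar particles, and the nucleolar histone chaperone Ncl (−0.20). Of 78 mitochondrial ribosomal protein genes, 15 were lower and 0 higher (median −0.18), with Mrpl38 (−0.47), Mrps10 (−0.37) and Mrps36 (−0.47) first. Initiation factors were lower for 9 of 26 genes and higher for 0 (median −0.09). The lower ones included the cap-binding protein Eif4e (−0.39), the eIF2 subunit Eif2s2 (−0.32) and the helicase Eif4a1 (−0.28). Over all genes tested, 9.78% were lower.

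Other lists gave the scale. Of 31 proteasome genes, 6 were lower in AMPK-KO (Psmb6, Psmd8 and Psmd12 first, −0.38 to −0.31). Of 55 nuclear respiratory chain genes 4 were lower, with Ndufa12 at −0.44, Atp5g1 at −0.28 and Atp5g2 at −0.27, and 0 of either list were higher. The estimate was below 0 for 25 of the 31 proteasome genes (median −0.096) and 51 of the 55 respiratory chain genes (median −0.20). It was also below 0 for 73 of the 78 mitochondrial ribosomal protein genes. A small decrease in nearly all members was thus not particular to the cytosolic ribosomal protein genes. Among 23 translation genes whose messages carry a 5′TOP, such as Eef1a1 (0.05) and Eef2 (0.08), only Eef1d was lower (−0.26), and the median was −0.01. Of 17 regulators, 2 were higher, Mxd1 (0.39), an antagonist of MYC, and the S6 kinase gene Rps6kb2 (0.36), and 3 were lower. The latter were Myc (−0.67), a transcription factor that drives ribosome production, the translation repressor Eif4ebp2 (−0.30) and Eef2k (−0.30). No gene of the 12 assembly chaperones or of the 6 surveillance genes passed the test.

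In late TAMs the same lists showed few calls, where 4.31% of all genes tested were higher and 4.88% lower. Ribosome biogenesis had 3 of 63 genes higher, Mybbp1a (0.35), Nat10 (0.41) and Dkc1 (0.49), and 0 lower (median 0.09), a share close to that of all genes tested. Among 5′TOP translation genes Eef2, the translocation factor, was higher (0.39) and Tpt1 lower (−0.30). The regulators Myc and Mxd1 went the other way than in AMPK-KO, with Myc higher (0.70) and Mxd1 lower (−0.65). Of the remaining lists, Eif1a (−0.29), the proteasome gene Psma4 (−0.28), the mitochondrial ribosomal gene Mrpl53 (−1.51) and the p53 target Cdkn1a (−0.52) were lower, and no respiratory chain or assembly chaperone gene passed the test.

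**Figure D5:**
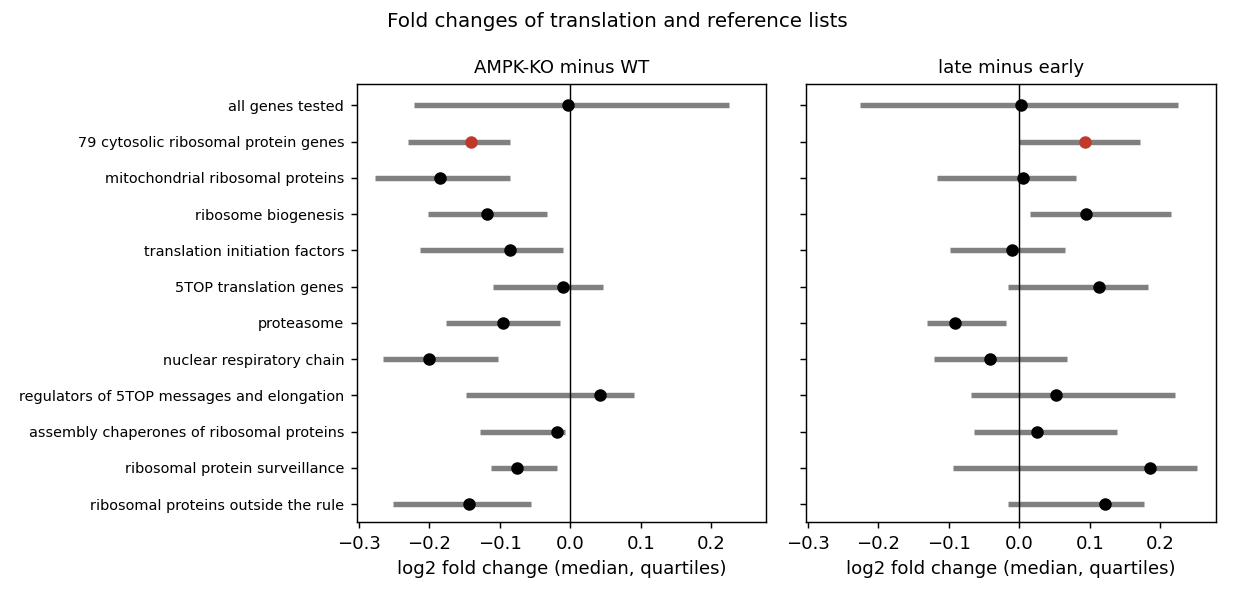
Log2 fold change (x axis) of all genes tested, of the 79 cytosolic ribosomal protein genes (red point) and of 10 other lists (y axis), AMPK-KO minus WT at left and late minus early at right. Points are medians over the genes of a list and bars run from the lower to the upper quartile. The median of the 79 genes is −0.14 at left and 0.09 at right.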

How the data were processed

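RNA from 12 TAM samples was sequenced, and the authors deposited raw gene counts in one table per comparison. Per the labels, total RNA was extracted and libraries were made with a dual-mode kit. Per the submitters' processing notes and the study's methods, reads were mapped with HISAT2 and counted with featureCounts. Tool versions, strand handling and the treatment of multiply mapped reads are not given in the sources used here. The labels name mm10 and GRCm38, and 54349 of 55401 identifiers match GENCODE M21, which gave positions, merged exon lengths and transcripts.

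Each table was analysed on its own with edgeR 4.0.16 in R 4.3.3: filterByExpr, TMM factors, glmQLFit and glmQLFTest without covariates, with Benjamini-Hochberg adjustment over all genes tested and a threshold of 0.05. All 79 genes passed the filter. CPM are scaled by TMM, and log2 CPM used a prior count of 2. Median fold changes and summed shares were given without a test. Alternatives were RLE and upper-quartile factors, TMM factors set without the 79 genes, DESeq2 1.42.0, no filter, at least 10 counts in every library, the replicate number as a block, each library left out, other member sets and other denominators of the share. A loess trend on exon length (span 0.5) and the exclusion of pseudogene rows were added after seeing the data. The fits were tested on simulated counts with some genes changed by 0.5 and others by 1 on the log2 scale. Of those changed by 0.5, 50% of 98 were called in the AMPK-KO table and 36.5% of 96 in the late table. Of those changed by 1, 69.5% of 95 and 64.6% of 99 were called. Smaller changes, such as the medians of −0.14 and 0.09 of the 79 genes, were not simulated. The changed genes were drawn at random from all genes tested and each gene was simulated independently. The 79 genes moved together from library to library, so these shares do not describe them as a set. Words of 100 bases were compared among annotated transcripts. Plots were drawn with matplotlib.

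The genes named were, in each comparison, the 5 higher and 5 lower members with the smallest p, and members with known roles or paralogs. Also named were the highest and lowest per length, those nearest the level minimum and up to 3 called genes per direction of each other list. The members, the lists and the naming rule were chosen with earlier results of these data known. The depth of 71019494 counts or more per library put at least 496 counts on each member in each library, so the spread between libraries and not counting error limits the precision.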

Additional observations from a re-analysis of the deposited data

How the results depend on the processing

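The medians and the differences in summed share kept their sign in every alternative tried. With libraries left out in turn, the number of members called lower in AMPK-KO ran from 1 (without WT 3, AMPK-KO 1 or AMPK-KO 2) to 38 (without WT 1), that of named members from 1 to 10, and the number called higher was 0. For late against early, the number called higher ran from 0 to 25 (without early 1) and that of named members from 0 to 9. DESeq2 called 11 members lower in AMPK-KO, and 3 higher in late, all 3 of them named. Without a filter, 1 was called lower in AMPK-KO, the named Rpl29, and with the exon length trend removed, chosen after seeing the data, 26. Except for DESeq2, the share of all genes tested that was called in these alternatives was not counted.

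Replicate numbers are shared between groups, but deviations from the group means correlated by at most 0.0423 between samples of the same number (n = 3 numbers per comparison), so the numbers were not taken as pairs. With the replicate number as a block, 18 members were called lower in AMPK-KO and 0 higher, and 0 were called in late. The share of all genes tested that was called in these fits was not counted either.

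Some single genes changed sign, none of which had passed the test. With libraries left out in turn, the log2 fold change in AMPK-KO ran from −0.028 to 0.068 for Rps4x, from −0.071 to 0.18 for Fau, from −0.12 to 0.063 for Rpl13a, from −0.37 to 0.030 for Rpl36a, from −0.14 to 0.0035 for Rpl5, from −0.59 to 0.014 for Rpl6l, from −0.15 to 0.052 for Rplp0, from −0.26 to 0.020 for Rplp2, from −0.37 to 0.11 for Rps27 and from −0.14 to 0.019 for Rps6. The genes other than Rps4x and Fau were above 0 without WT 2. In late it ran from −0.070 to 0.060 for Rpl36a, from −0.22 to 0.0068 for Rpl39, from −0.052 to 0.22 for Rps4l and from −0.087 to 8.5e-04 for Rpl36al. Rps4x was also at −0.0095 in AMPK-KO with the length trend removed, and Rpl36a in late at 0.00018 with RLE factors, 6.4e-05 with TMM factors set without the members and 0.0035 with at least 10 counts in every library. The cause was not tested.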
